A study of Mus musculus with 16 samples.

Results

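The question was whether pancreas with little of the protease ADAM17 answers cerulein differently from wild-type (WT) pancreas, and for which genes. All 16 libraries of the series entered the comparison, 4 in each of 4 groups, so it uses 16 of 16. Per the labels, the animals were C57BL/6J mice aged 6 to 8 weeks, either WT or Adam17ex/ex littermates, called Adam17ex here. The Adam17ex/ex mice carry a hypomorphic allele in every tissue, so the change is not limited to 1 pancreatic cell type. Mice of both genotypes were injected into the peritoneum 7 times, once per hour, with cerulein at 50 µg per kg or with 50 µl of phosphate-buffered saline (PBS), and were killed 1 h after the last injection. The 4 groups are therefore WT with PBS, WT with cerulein, Adam17ex with PBS and Adam17ex with cerulein. For each gene, the cerulein effect in Adam17ex (cerulein minus PBS) had the cerulein effect in WT subtracted from it on the log2 scale. The result is called the interaction. It is above 0 where cerulein raised a gene more, or lowered it less, in Adam17ex than in WT, and below 0 in the opposite case. The same number is also the genotype difference (Adam17ex minus WT) under cerulein minus the genotype difference under PBS, so each interaction was read both ways.

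ADAM17 is a membrane-bound protease, or sheddase, that cuts the extracellular part from other membrane proteins. Among its known substrates are tumour necrosis factor, several ligands of the epidermal growth factor receptor (EGFR) and the receptor of interleukin 6. Cerulein acts on the cholecystokinin receptor of acinar cells, the enzyme-secreting cells that form most of the pancreas. Supramaximal doses keep cytosolic calcium high, activate the calcium-dependent phosphatase calcineurin, load the endoplasmic reticulum (ER) and start acute pancreatitis.

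The targeted gene was read first as a check of the labels. Adam17 (chr12:21323509-21373632) stood at 13.8, 11.6, 5.12 and 9.57 CPM in the WT PBS libraries and at 15, 10.8, 18.9 and 11.3 CPM in the WT cerulein libraries, where CPM are molecule counts scaled for the depth and composition of each library. It stood at 2.54, 2.52, 5.88 and 4.93 CPM in the Adam17ex PBS libraries and at 3.09, 3.47, 2.34 and 3.99 CPM in the Adam17ex cerulein libraries. All Adam17ex libraries lay below all WT libraries but 1, WT PBS replicate 3. Under cerulein the genotypes differed by -2.05 log2 units (adjusted p = 0.00137, edgeR), and under PBS by -1.21 (adjusted p = 0.210). The interaction of Adam17 itself was -0.84 ± 0.65 (SE, adjusted p = 0.485). By depth alone 1 molecule was worth 2.03, 2.1, 2.2 and 0.99 CPM in the Adam17ex PBS libraries, in replicate order. Their Adam17 values are therefore a few molecules each, which limits this check and the interaction.

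Library depth ran from 455547 to 1476159 molecules. Depth was lowest in Adam17ex PBS replicates 1, 2 and 3, at 455547 to 492878, and a ribosomal RNA gene took 7.84% to 9.02% of their molecules against 2.02% to 5.04% in the other libraries. These 3 libraries supply most of one corner of the contrast, so the main results are also given without them. That leaves replicate 4 alone in the Adam17ex PBS group. Fits without the 3 therefore take no spread from this group, and a call that holds there rests on 1 library in that corner. The labels give 0 males among the WT PBS mice, 1 among the WT cerulein mice and 2 in each Adam17ex group. Sex was therefore a covariate. The sample labels also hold a 4-digit code of unstated meaning whose ranges differ between the groups, and a batch that it might mark cannot be told apart from them. Nothing in the labels says that mice of a group came from different litters, so the p-values measure the spread between these 16 libraries. Sums of markers, here and below, are CPM scaled for depth alone, without the composition factor of each library. Acinar markers summed to 126000 to 179000 CPM over all libraries, and the T cell and neutrophil marker lists had no member with enough counts to be tested. Adam17ex PBS replicate 3, one of the shallow libraries, stood apart in its markers of other cell types. Its summed macrophage markers were at 1480 CPM against at most 553 CPM in the other 15 libraries, its fibroblast markers at 2260 CPM against at most 1180 CPM, and it was also highest for B cell (2370 CPM), adipocyte (1900 CPM), erythrocyte (14300 CPM), endothelial (845 CPM) and T cell (94.4 CPM) markers. Digestive enzymes took 39.7% of its molecules, against 49.9% to 50.5% in the other 3 libraries of its group. The part of these cells in the results was not tested. Without this library 342 genes had a called interaction, and 329 of them were also called with all libraries. In bulk tissue, fewer cells of a type and less RNA per cell cannot be told apart.

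Of 8236 genes tested, 494 had a called interaction, which is 6.00% (edgeR quasi-likelihood test, Benjamini-Hochberg adjusted p under 0.05). In 309 of them, or 3.75% of the genes tested, the interaction was higher, and in 185, or 2.25%, it was lower. At an unadjusted p under 0.05 there were 1799 genes. The called interactions had a median size of 1.47 log2 units, 436 exceeded a 2-fold difference of responses, 122 a 4-fold and 28 an 8-fold one. Over all genes tested the median interaction was -0.01. On the linear scale the difference of differences had the same sign for all 494 genes. In the same fit, cerulein changed 3387 genes in WT (41.1%) and 2493 in Adam17ex (30.3%), while the genotypes differed in 797 genes under cerulein (9.68%) and in 112 under PBS (1.36%).

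The called genes took several shapes, given here as a description, since the interaction is computed from the same libraries as the effects it compares. In 162 genes the fitted effect was a fall in WT and a rise in Adam17ex, and in 95 it was a rise in WT and a fall in Adam17ex. These shapes go by the sign of the fitted effects alone. Both cerulein effects were called in only 33 of the 162 and 11 of the 95. A further 124 had a smaller fall and 80 a smaller rise in Adam17ex than in WT. A larger rise was found in 23 and a larger fall in 10. The effect was closer to 0 in Adam17ex than in WT in 340 of the called genes and farther from 0 in 154. Among all genes tested, called or not, the 6 shapes took 14%, 13.7%, 21.3%, 20.6%, 13.9% and 16.5% in the same order. Read the other way, 332 genes had the larger genotype difference among the cerulein libraries and 162 among the PBS libraries.

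The number of calls leaned on single libraries. It was 239 without Adam17ex cerulein replicate 2, 314 without WT cerulein replicate 3 and 315 without Adam17ex cerulein replicate 3. Of the 494 genes, 197 were called in each of the 16 fits that left out 1 library. Leaving out the 3 shallow Adam17ex PBS libraries gave 152 calls, 120 of which belong to the 494, and the sign of all 494 stayed as it was. With no male libraries, which left 11, 82 genes were called.

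**Figure D1:**
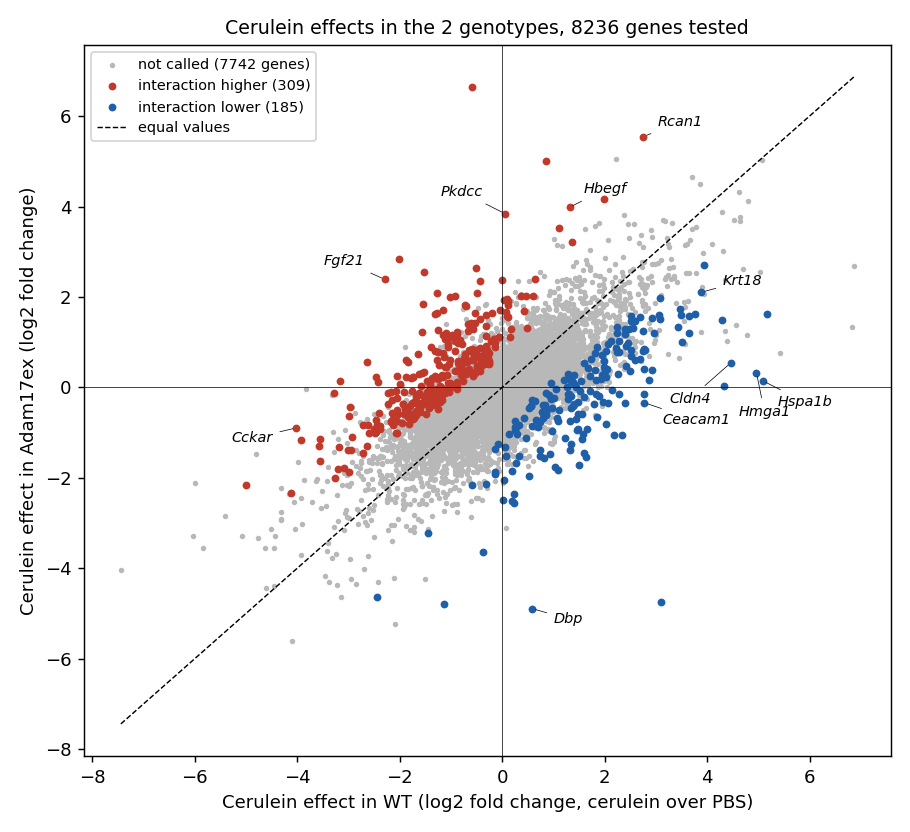
Each point is 1 of 8236 genes, placed by its cerulein effect in WT (horizontal axis) and in Adam17ex (vertical axis), both as log2 fold change of cerulein over PBS, with 4 libraries per group. The 309 red genes lie above the dashed line of equal effects and the 185 blue ones below it, with Hspa1b and Hmga1 far right near 0 on the vertical axis and Fgf21 in the upper left.

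The gene lists described next were compared by how many tested members were called and by their median interaction, beside the values for all genes. Over all 8236 genes tested, 3.75% were called higher and 2.25% lower, 4052 interactions were above 0 and the median was -0.01. These values are the background for each list below. The calls among heat shock chaperones and those among ER chaperones lay mostly on opposite sides of 0. Among 28 tested members of the heat shock list, which are chaperones of the cytosol and nucleus and their partners, 8 were called lower and 1 higher, and the list's median interaction was -0.58. Among 31 tested members of the list for protein folding and degradation in the ER, 15 were called higher and 0 lower, all 31 interactions were above 0, and the median was 1.00. The epithelial keratin and duct list had 9 of 20 lower, and the actin cytoskeleton list 11 of 39 lower, with medians of -1.07 and -0.80.

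**Figure D2:**
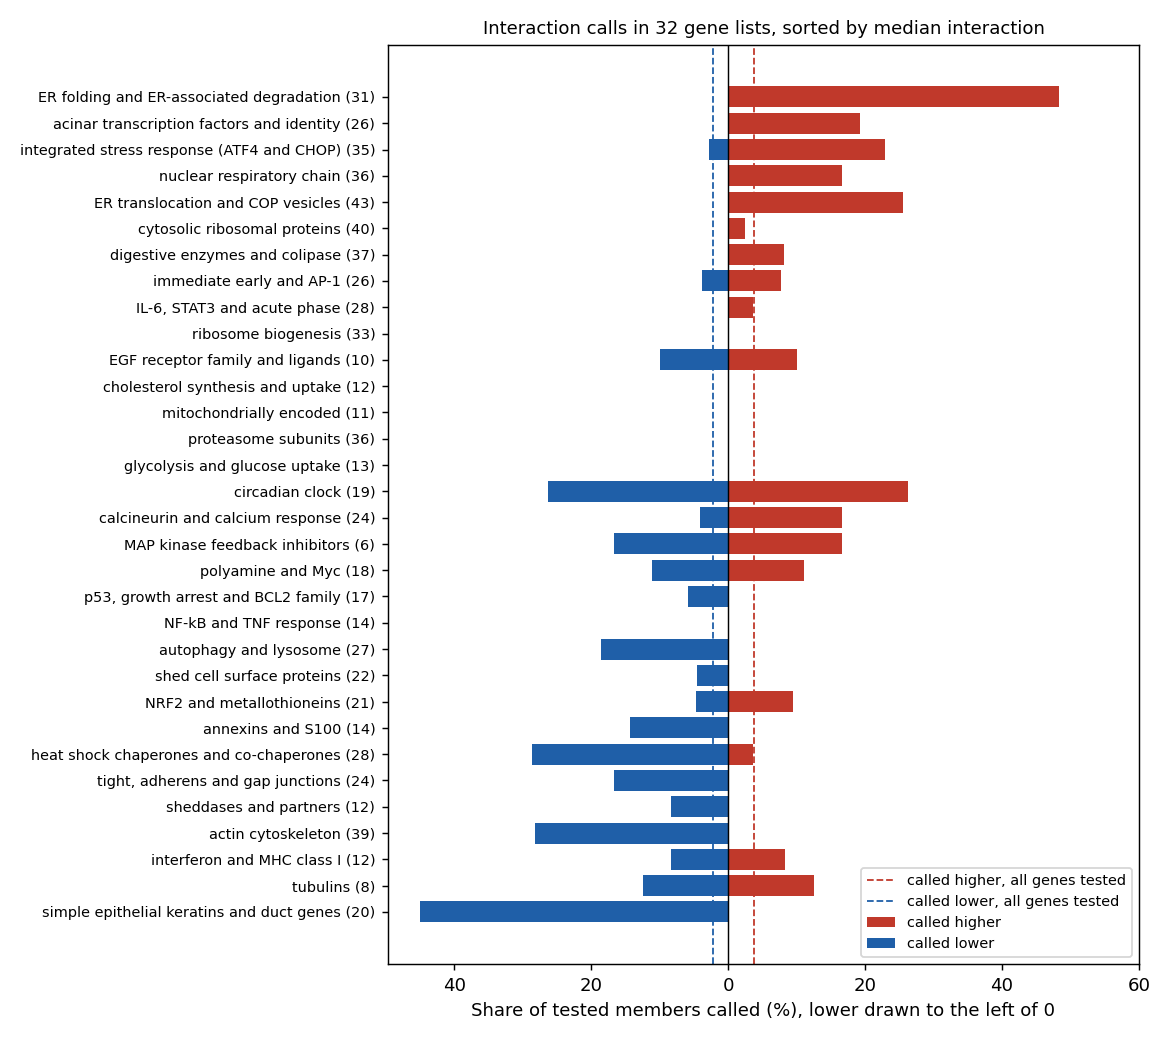
Bars give the share of tested members called higher (red, right) or lower (blue, left) for the interaction in 32 gene lists, with the number tested in brackets, and dashed lines give the shares over all 8236 genes. The ER folding list extends farthest right and the keratin and duct list farthest left, while 6 lists have no called member.

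Heat shock proteins of the HSP70 family bind unfolded proteins, and their transcription is switched on by the factor HSF1 through heat shock elements, inverted GAA blocks near the start of the gene. In the windows from 250 bases before to 50 bases after the gene start (RefSeq, GRCm38.p6), the letters GAANNTTC or TTCNNGAA were found on either strand in 12 of 22 heat shock list members with a window (54.5%), and in 13.7% of the 5966 tested genes with one. A match is only a match of letters. The stretches before the starts of 3 called members are shown because they carry the motif, in capitals, and belong to genes whose cerulein effect was larger in WT than in Adam17ex. The stretch of Hspa1b lies at chr17:34959239-34959358 on the minus strand, that of its near-identical neighbour Hspa1a at chr17:34972157-34972276 on the minus strand, and that of Hspb1 at chr5:135887799-135887918 on the plus strand, which holds 2 matches.
Hspa1b: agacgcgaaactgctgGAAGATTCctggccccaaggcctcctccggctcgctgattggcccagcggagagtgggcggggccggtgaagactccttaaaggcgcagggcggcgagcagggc
Hspa1a: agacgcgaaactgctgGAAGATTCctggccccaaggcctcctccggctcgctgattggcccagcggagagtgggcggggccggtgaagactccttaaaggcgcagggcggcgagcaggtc
Hspb1: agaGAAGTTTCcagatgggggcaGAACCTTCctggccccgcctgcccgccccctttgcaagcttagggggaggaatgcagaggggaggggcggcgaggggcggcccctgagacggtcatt

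Hspa1b (chr17:34956436-34959238), which encodes an inducible HSP70, stood at 5.74, 8.00, 1.02 and 4.78 CPM in WT PBS and at 81.2, 184, 203 and 182 CPM in WT cerulein libraries. In Adam17ex it stood at 7.61, 15.1, 5.88 and 4.93 CPM under PBS and at 7.21, 5.20, 11.7 and 8.64 CPM under cerulein. The WT cerulein libraries lay apart from the other 12, and the Adam17ex groups overlapped. Cerulein thus raised Hspa1b by 5.09 log2 units in WT (adjusted p = 6.11e-11), against 0.15 in Adam17ex (adjusted p = 0.844), and the interaction was -4.94 ± 0.66 (SE, adjusted p = 0.000118). Without the 3 shallow libraries it was -4.03 (adjusted p = 0.0479). Its neighbour Hspa1a showed a similar picture, with an interaction of -2.80 ± 0.84 (adjusted p = 0.0476), but that call held in only 2 of the 16 fits without 1 library, those without WT cerulein replicate 1 and without Adam17ex cerulein replicate 3, and it ended without the 3 shallow libraries (-2.36, adjusted p = 0.417). Reads of the 2 copies can be assigned to either one, so their separate values are uncertain.

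Hspb1, a small heat shock protein that also binds actin filaments, rose in both genotypes, but less in Adam17ex. Under cerulein it stood at 268, 311, 346 and 284 CPM in WT and at 56.6, 59.0, 70.3 and 63.1 CPM in Adam17ex. Under PBS the ranges overlapped, at 10.8 to 33.3 CPM in WT and 12.7 to 26.6 CPM in Adam17ex. The cerulein effect was 3.77 in WT and 1.61 in Adam17ex, and the interaction -2.16 ± 0.37 (adjusted p = 0.00109). Hsph1, a nucleotide exchange factor for HSP70, rose by 2.08 log2 units in WT to 70.2 to 139 CPM, whereas its 4 Adam17ex cerulein libraries at 21.6 to 26.9 CPM lay within or below its PBS levels in both genotypes (interaction -2.41 ± 0.38, adjusted p = 0.000453). Dnaja1, a J-domain partner of HSP70, rose by 2.27 in WT and by 0.78 in Adam17ex (interaction -1.49 ± 0.26, adjusted p = 0.00110). These 3 calls held in all 16 fits without 1 library and without the 3 shallow libraries.

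The exception in this list was Hspa4l, another exchange factor of the HSP110 family. It rose in both genotypes and reached 96.8, 132, 151 and 142 CPM in Adam17ex cerulein libraries, against 40.6, 38.9, 65.0 and 33.1 CPM in WT cerulein libraries. Its interaction was 2.17 ± 0.47 (adjusted p = 0.00842). Of the 9 calls in the list, 5 held in all 16 fits without 1 library and 5 without the 3 shallow libraries.

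**Figure D3:**
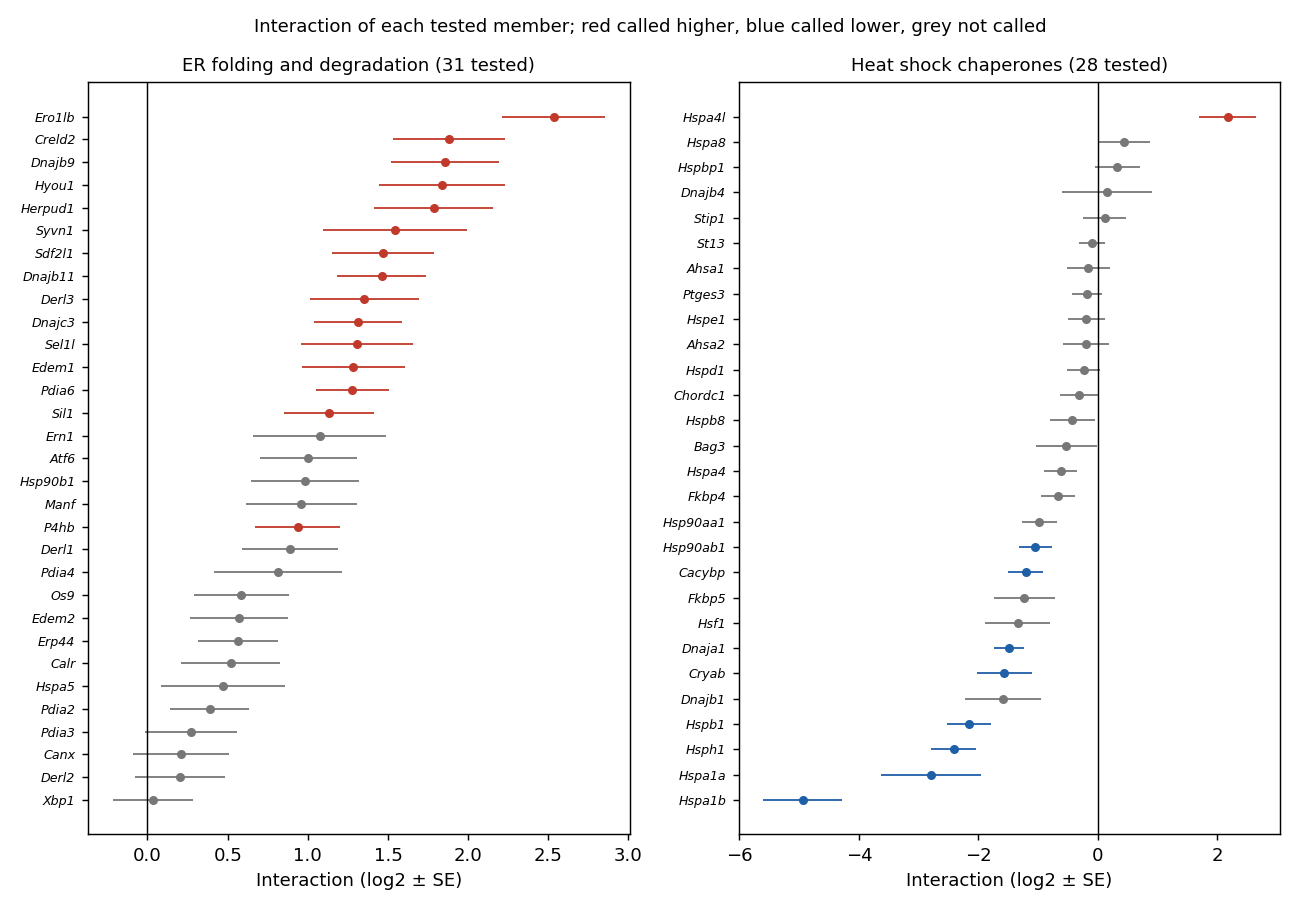
Points give the interaction of each tested member of the ER folding list (left, 31 genes) and the heat shock list (right, 28 genes) in log2 units, with bars of 1 SE, red for called higher, blue for called lower and grey for not called. All 31 ER members lie above 0, whereas 23 of 28 heat shock members lie below it.

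Keratins 8, 18 and 19 form the intermediate filaments of simple epithelia. Keratin 19, osteopontin (Spp1) and claudin 4 (a tight junction protein) are typical of ducts and rise in acinar cells that lose their differentiated state. Krt19 (chr11:100140810-100148665) stood at 55.1, 47.3, 57.4 and 39.5 CPM in WT PBS libraries and at 538, 587, 422 and 616 CPM in WT cerulein libraries. In Adam17ex the levels were 68.5, 37.8, 58.8 and 64.1 CPM under PBS and 179, 162, 128 and 120 CPM under cerulein. The PBS groups overlapped, the 2 cerulein groups did not, and both lay above the PBS levels. The cerulein effect was 3.42 in WT and 1.34 in Adam17ex, and the interaction -2.08 ± 0.29 (adjusted p = 0.000163). Krt18 rose by 3.89 in WT, to 3164 to 4658 CPM, and by 2.10 in Adam17ex, to 1262 to 1722 CPM (interaction -1.78 ± 0.26, adjusted p = 0.000228). Krt8 followed with an interaction of -1.23 ± 0.28 (adjusted p = 0.0121), which did not pass without the 3 shallow libraries (-0.82, adjusted p = 0.237).

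Cldn4 stood at 4.78 to 6.55 CPM in WT PBS and at 98.0 to 199 CPM in WT cerulein libraries, whereas in Adam17ex it stood at 2.52 to 13.7 CPM under PBS and 5.32 to 15.5 CPM under cerulein. Its interaction was -3.92 ± 0.63 (adjusted p = 0.000634), and -3.76 without the 3 shallow libraries (adjusted p = 0.0553). Spp1, a secreted phosphoprotein, rose in WT from 71.8 to 99.8 CPM to 166 to 343 CPM, while its Adam17ex libraries stood at 76.1 to 118 CPM under PBS and 45.1 to 95.7 CPM under cerulein (interaction -2.15 ± 0.32, adjusted p = 0.000258). Of the 9 calls in this list, 5 held in all 16 fits without 1 library, and 3 of them, Krt18, Krt19 and Spp1, held without the 3 shallow libraries.

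These genes overlap with the duct cell markers. Summed in CPM scaled for depth alone, the markers stood at 1150 to 1270 CPM in WT cerulein and at 404 to 477 CPM in Adam17ex cerulein libraries. They stood at 285 to 376 CPM in WT PBS and at 288 to 418 CPM in Adam17ex PBS libraries. Of 8 duct markers, 5 were tested and 3 called lower (Krt19, Krt7 and Spp1). No duct marker was at 0 in any group, and the least counted, Cftr, had 5, 23, 3 and 23 molecules in WT PBS, WT cerulein, Adam17ex PBS and Adam17ex cerulein libraries together. The interactions of the tested markers did not all have the same sign. That of Muc1, a surface mucin, was above 0 and not called (0.70 ± 0.31, adjusted p = 0.194). Muc1 had 563 molecules under PBS and 394 under cerulein over the WT libraries, and 364 and 637 over those of Adam17ex. Tspan8, which was not tested, had 30 and 20 molecules in WT and 11 and 47 in Adam17ex. These molecule sums, like those of Cftr, are not scaled for depth. The shallow libraries are all in the Adam17ex PBS group, so a cerulein effect in Adam17ex cannot be read from the sums. The duct transcription factor Sox9 was tested and not called (-0.55 ± 0.30, adjusted p = 0.292). The part of a changed number of duct cells in these results was not tested.

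Ceacam1 (chr7:25461707-25477603), a cell adhesion receptor of the carcinoembryonic antigen family, had the smallest p of all genes. It stood at 24.1, 31.3, 25.6 and 25.1 CPM in WT PBS and at 285, 193, 157 and 181 CPM in WT cerulein libraries. In Adam17ex it stood at 27.9, 22.7, 39.2 and 24.6 CPM under PBS and at 20.6, 26.0, 21.1 and 21.9 CPM under cerulein. Only the WT cerulein group stood apart. Its interaction was -3.11 ± 0.29 (adjusted p = 1.44e-06), and -3.12 without the 3 shallow libraries. Reads could be shared with its close relative Ceacam2. Hmga1 and its near-identical copy Hmga1b, chromatin-binding proteins of proliferating cells, rose in WT by 4.96 and 4.34 log2 units, against 0.33 and 0.04 in Adam17ex, where neither passed the test. Hmga1b stood at 169 to 228 CPM in WT cerulein and at 13 to 21.6 CPM in Adam17ex cerulein libraries. The interactions were -4.64 ± 0.61 (adjusted p = 8.91e-05) and -4.30 ± 0.48 (adjusted p = 2.38e-05), and the counts of the 2 copies cannot be separated with certainty.

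Among the actin genes, Zyx, which encodes the focal adhesion protein zyxin, stood at 9.18, 17.5, 11.3 and 9.57 CPM in WT PBS and at 162, 154, 132 and 178 CPM in WT cerulein libraries. In Adam17ex it went from 22.8, 22.7, 47.1 and 28.6 CPM to 73.1, 61.6, 66.8 and 82.4 CPM. The Adam17ex PBS libraries lay above the WT PBS ones and the Adam17ex cerulein libraries below the WT cerulein ones, so both genotype differences fed the interaction of -2.44 ± 0.34 (adjusted p = 0.000163). Actg1 (cytoplasmic gamma-actin) rose by 3.47 in WT and 1.74 in Adam17ex (interaction -1.73 ± 0.33, adjusted p = 0.00242). Anxa2 (annexin A2) and S100a11, which bind calcium and membranes or their partners, had interactions of -1.98 ± 0.33 (adjusted p = 0.000853) and -2.06 ± 0.38 (adjusted p = 0.00231). All 4 calls held without the 3 shallow libraries. No member of the actin list was called higher, and 5 of its 11 calls held in all 16 fits without 1 library.

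**Figure D4:**
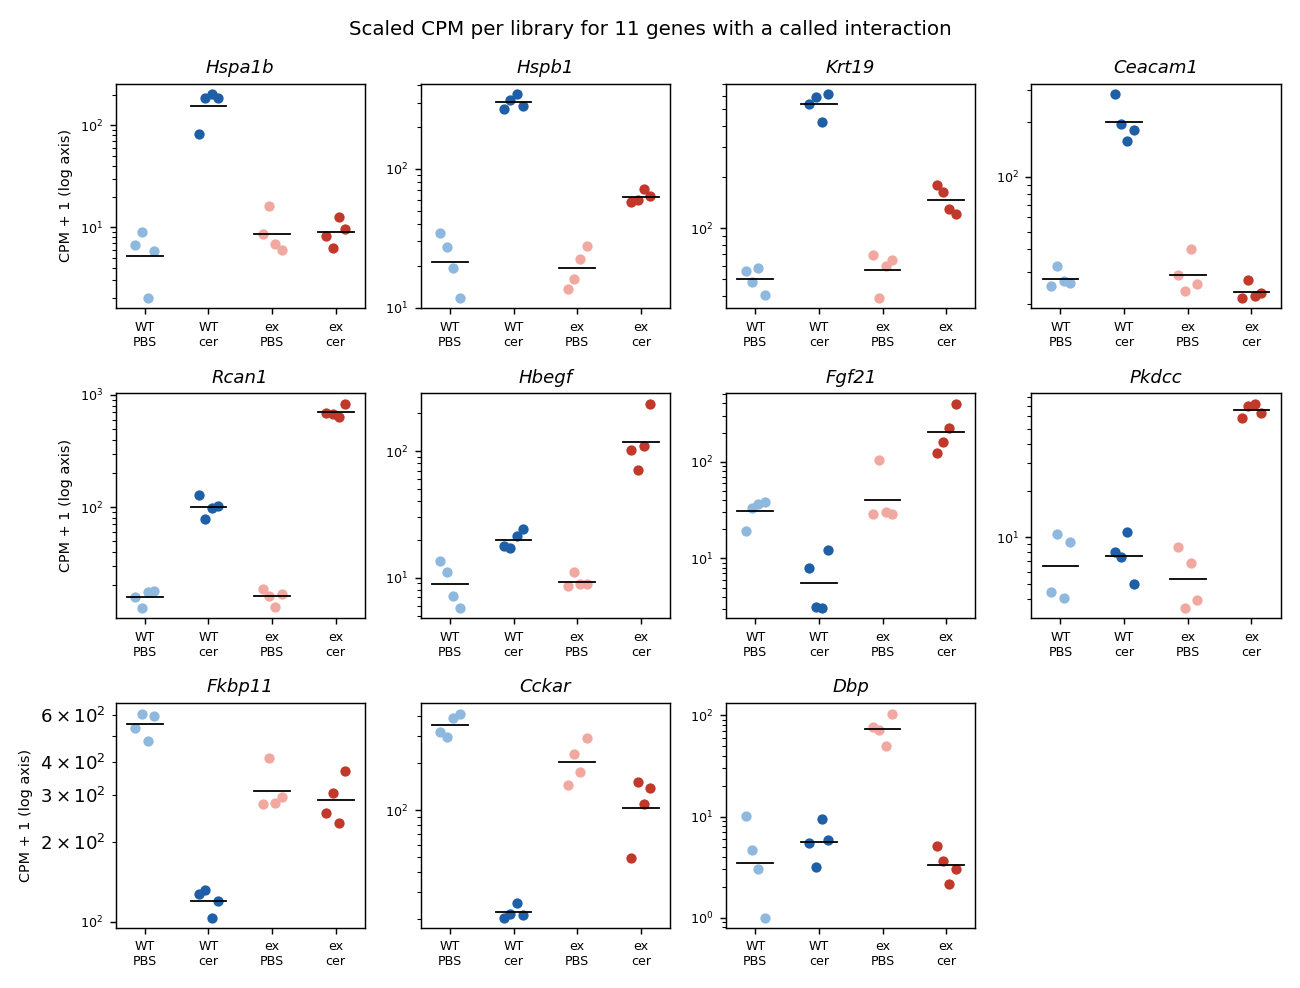
Scaled CPM plus 1 on a log axis for 11 called genes, 1 point per library, for WT and Adam17ex (ex) under PBS and cerulein (cer), with bars at the geometric mean of 4 libraries. In Hspa1b, Krt19 and Ceacam1 the WT cerulein group is highest, in Rcan1, Hbegf, Fgf21 and Pkdcc the Adam17ex cerulein group, in Fkbp11 and Cckar the WT cerulein group is lowest, and in Dbp the Adam17ex PBS group is apart.

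Genes of the axis that ADAM17 acts on are given next. Among 10 tested members of the EGFR family and ligand list, 1 was higher and 1 lower. Hbegf, a heparin-binding EGFR ligand that is made as a membrane protein, rose in both genotypes. It stood at 16.8, 16.2, 20.3 and 23.4 CPM in WT cerulein and at 101, 70.3, 109 and 236 CPM in Adam17ex cerulein libraries, while under PBS it was at 4.78 to 12.6 CPM in WT and 7.61 to 10.1 CPM in Adam17ex. Both cerulein groups lay above both PBS groups and did not overlap each other. Its interaction was 2.67 ± 0.54 (adjusted p = 0.00489), and it was called in all 16 fits without 1 library and without the 3 shallow libraries (3.02). Errfi1, a feedback inhibitor that binds the EGFR kinase, went the other way. It rose in WT by 2.86, from 6.88 to 13.3 CPM to 59.4 to 96.8 CPM, whereas in Adam17ex it was at 15.7 to 43.1 CPM under PBS and 21.7 to 39.1 CPM under cerulein (interaction -2.69 ± 0.43, adjusted p = 0.000543).

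Egfr itself rose in both genotypes, by 2.17 in WT and 2.23 in Adam17ex, and its interaction was 0.06 ± 0.42 (adjusted p = 0.997). Too few molecules for a test were counted over all libraries for the ligands Areg (43) and Tgfa (87) and for Tnf (6) and Il6 (4). For the IL-6 receptor chains, Il6ra had an interaction of -0.29 ± 0.36 (adjusted p = 0.687) and the shared signalling chain Il6st 0.09 ± 0.30 (adjusted p = 0.904). Of 28 tested members of the IL-6, STAT3 and acute phase list, Reg3d alone was called. This regenerating-family lectin fell by 0.92 in WT and rose by 1.02 in Adam17ex (interaction 1.94 ± 0.41, adjusted p = 0.00633). Reg3b, of the same family, had an interaction of 1.13 ± 0.91 (adjusted p = 0.502), with 1 WT PBS library at 2268 CPM and the other 3 at 141 to 211 CPM. Among 12 sheddases and partners, Timp3, an inhibitor of ADAM17, was called lower (-1.58 ± 0.39, adjusted p = 0.0176), and that call ended without WT cerulein replicate 3 (adjusted p = 0.0518) and without the 3 shallow libraries (adjusted p = 0.315). Among 22 membrane proteins listed as shed, Epcam was called lower (-0.92 ± 0.27, adjusted p = 0.0480), a call that held in only 2 of the 16 fits without 1 library and ended without the 3 shallow libraries (adjusted p = 0.0650).

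Further calls with lower values came from several lists. Gadd45g, a growth arrest protein, rose in WT from 9.22 to 19.1 CPM to 43.2 to 82.3 CPM and fell in Adam17ex from 15.1 to 38.4 CPM to 9.37 to 13.3 CPM (interaction -3.25 ± 0.42, adjusted p = 8.26e-05). Irf1, an interferon-induced transcription factor, also rose in WT and fell in Adam17ex (-3.17 ± 0.68, adjusted p = 0.00695). In the autophagy and lysosome list 5 of 27 tested members were lower and 0 higher. They were Map1lc3a (-2.50 ± 0.36, adjusted p = 0.000228) and Map1lc3b (-0.95), which encode LC3 proteins of the autophagosome, the cargo receptor Sqstm1 (-1.25) and the lysosomal proteases Ctsl (-1.05) and Ctsb (-0.97). Map1lc3a and Sqstm1 held in all 16 fits without 1 library, and Map1lc3a without the 3 shallow libraries.

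A smaller set of genes responded more in Adam17ex. Rcan1 (chr16:92391953-92470867), a calcineurin inhibitor whose transcription calcineurin itself drives, stood at 14.9, 11.6, 16.4 and 16.7 CPM in WT PBS and at 127, 76.7, 97.9 and 102 CPM in WT cerulein libraries. In Adam17ex it stood at 17.8, 15.1, 11.8 and 15.8 CPM under PBS and at 694, 675, 639 and 835 CPM under cerulein. The PBS groups overlapped, and the lowest Adam17ex cerulein library lay above the highest WT cerulein library. The cerulein effect was 2.76 in WT and 5.55 in Adam17ex, and the interaction 2.79 ± 0.33 (adjusted p = 4.00e-05). In the calcineurin and calcium list of 24 tested genes 4 were higher and 1 lower. Besides Rcan1 these were the calcineurin catalytic subunit Ppp3ca (1.28), the ER calcium pump Atp2a2 (1.26), the cholecystokinin receptor Cckar described below, and the calcineurin-activated factor Nfatc1 (-1.92 ± 0.41, adjusted p = 0.00715). The Atp2a2 call ended without Adam17ex cerulein replicate 2 (adjusted p = 0.0507) and without the 3 shallow libraries (adjusted p = 0.0603). The Nfatc1 call also ended without the 3 shallow libraries (-1.57, adjusted p = 0.149), so 3 of the 5 calls held there.

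Pkdcc, a secreted tyrosine kinase, stood at 3.07 to 9.46 CPM in WT PBS, 4.04 to 9.79 CPM in WT cerulein and 2.52 to 7.61 CPM in Adam17ex PBS libraries. In Adam17ex cerulein libraries it stood at 57.7, 68.5, 71.5 and 62.5 CPM, apart from the other 12. Its interaction was 3.77 ± 0.56 (adjusted p = 0.000258). Dusp8, a phosphatase of MAP kinases, fell by 1.27 in WT and rose by 1.65 in Adam17ex (2.92 ± 0.58, adjusted p = 0.00408). Of 26 tested immediate early genes, which mark recent stimulation, Zfp36l1 (1.76) and Ier2 (1.77) were higher and Gadd45g lower. All 5 of these genes held without the 3 shallow libraries.

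The integrated stress response lowers translation when eIF2α is phosphorylated and switches on targets of the factors ATF4 and CHOP. Of 35 tested members of its list, 8 were called higher and 1 lower, 32 interactions were above 0 and the median was 0.67. Composite sites for the 2 factors can be written TGATGNAA. On either strand these letters were found in the windows of 10 of 28 list members (35.7%) and in 2.90% of all tested genes with a window. The stretches before 2 called members are shown, with the reverse complement of the motif in capitals: Fgf21 at chr7:45615491-45615639 on the minus strand and Chac1 at chr2:119351039-119351228 on the plus strand.
Fgf21: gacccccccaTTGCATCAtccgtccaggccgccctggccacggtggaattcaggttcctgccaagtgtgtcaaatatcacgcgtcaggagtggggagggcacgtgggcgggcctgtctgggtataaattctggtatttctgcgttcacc
Chac1: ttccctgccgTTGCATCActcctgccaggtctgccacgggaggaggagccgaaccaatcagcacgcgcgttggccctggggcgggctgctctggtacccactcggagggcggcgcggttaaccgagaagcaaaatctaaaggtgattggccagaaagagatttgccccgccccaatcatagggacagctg

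Fgf21, a hormone that the exocrine pancreas makes and that stimulates secretion, moved in opposite directions. It fell in WT from 18.4, 32, 35.8 and 37.1 CPM under PBS to 7.06, 2.16, 2.10 and 11.3 CPM under cerulein. In Adam17ex it rose from 27.9, 103, 29.4 and 27.6 CPM to 122, 160, 221 and 397 CPM. The 2 cerulein groups lay on either side of both PBS groups. Its interaction was 4.68 ± 0.65 (adjusted p = 0.000163), and 5.54 without the 3 shallow libraries. Chac1, an enzyme that degrades glutathione, had levels of 28.7 to 71.5 CPM in WT cerulein and 79.3 to 194 CPM in Adam17ex cerulein libraries. Its interaction of 1.89 ± 0.54 (adjusted p = 0.0401) was called in 6 of the 16 fits without 1 library and not without the 3 shallow ones (1.75, adjusted p = 0.169).

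Aldh1l2, a mitochondrial folate enzyme, fell in WT from 91.6 to 128 CPM to 5.40 to 11.9 CPM and in Adam17ex from 80.6 to 157 CPM to 38.7 to 59.8 CPM (interaction 2.40 ± 0.34, adjusted p = 0.000163). Eif2ak3 encodes PERK, the ER-stress kinase of eIF2α. It rose by 0.60 in WT and by 2.03 in Adam17ex (1.43 ± 0.27, adjusted p = 0.00249), and did not pass without the 3 shallow libraries (0.97, adjusted p = 0.143). Also higher were the amino acid transporter Slc38a2 (1.56) and the serine synthesis enzyme Psat1 (1.20), of which Psat1 did not pass without the 3 shallow libraries (1.22, adjusted p = 0.147). Wars, the tryptophan tRNA ligase, was the 1 member called lower (-1.14 ± 0.32, adjusted p = 0.0377), a call that ended in 10 of the 16 fits without 1 library. Without the 3 shallow libraries its interaction was -1.70, and it is among the calls of the list that held there. Of the 9 calls in this list, 5 held in all 16 such fits and 4 without the 3 shallow libraries.

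Chaperones and disulfide-forming enzymes of the ER fold the digestive enzymes, and the factors ATF6 and XBP1 raise their transcription through ER stress elements. Such an element was searched on either strand as CCAAT and CCACG with 9 bases between them. It was found in the windows of 9 of 25 ER folding genes (36.0%) and in 0.184% of the 5966 tested genes with a window, which is 11 genes. Of the 12 called list members with a window, 5 held it. The stretches before 3 of them are shown, with the element in capitals: Pdia6 at chr12:17266469-17266544, Creld2 at chr15:88819510-88819645 and Dnajc3 at chr14:118937812-118937931, all on the plus strand and in Creld2 as the reverse complement.
Pdia6: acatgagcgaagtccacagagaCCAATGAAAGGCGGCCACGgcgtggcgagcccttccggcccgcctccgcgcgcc
Creld2: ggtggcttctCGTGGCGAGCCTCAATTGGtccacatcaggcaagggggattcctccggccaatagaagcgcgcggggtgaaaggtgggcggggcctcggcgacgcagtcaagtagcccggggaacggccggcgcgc
Dnajc3: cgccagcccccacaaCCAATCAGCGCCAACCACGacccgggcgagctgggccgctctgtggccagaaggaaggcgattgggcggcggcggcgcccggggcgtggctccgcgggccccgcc

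Members of the list mostly fell in WT: 25 of 31 were called lower under cerulein there, against 10 in Adam17ex. Over all genes tested, 21.3% were called lower under cerulein in WT and 16.2% in Adam17ex. Pdia6, a protein disulfide isomerase, went from 352, 362, 322 and 382 CPM to 75.9, 132, 122 and 107 CPM in WT. In Adam17ex it stood at 251, 257, 192 and 267 CPM under PBS and at 180, 195, 178 and 189 CPM under cerulein. The genotypes did not overlap under either treatment, with Adam17ex lower under PBS and higher under cerulein. The interaction was 1.28 ± 0.23 (adjusted p = 0.00183). Creld2, a secreted ER stress protein, showed a larger gap under PBS, with 192 to 289 CPM in WT and 54.9 to 122 CPM in Adam17ex, than under cerulein, with 22.9 to 46.5 and 42.2 to 49.2 CPM (1.88 ± 0.35, adjusted p = 0.00221). Dnajc3, an inhibitor of PERK, fell by 1.91 in WT and by 0.59 in Adam17ex (1.31 ± 0.27, adjusted p = 0.00577).

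Ero1lb, the pancreatic oxidase that recharges disulfide isomerases, had the largest value in the list. It fell in WT from 327 to 436 CPM to 67.0 to 83.9 CPM, and in Adam17ex it was at 114 to 252 CPM under PBS and 145 to 240 CPM under cerulein (2.54 ± 0.32, adjusted p = 6.40e-05). Dnajb9, a J-domain partner of the ER chaperone BiP, had an adjusted p of 0.0520 for its fall in WT and rose by 1.29 in Adam17ex (interaction 1.86 ± 0.34, adjusted p = 0.00192). Hyou1 (1.84) and the degradation factor Herpud1 (1.79) were also higher. Fkbp11, a prolyl isomerase of secretory cells outside the list, stood at 479 to 607 CPM in WT PBS and 103 to 131 CPM in WT cerulein libraries, and at 277 to 411 and 234 to 368 CPM in Adam17ex (2.06 ± 0.25, adjusted p = 5.13e-05). Of the 15 calls in the list, 9 held in all 16 fits without 1 library and 6 without the 3 shallow libraries, and the list's median was 1.27 without the latter. The median genotype difference of the list was -0.35 under PBS and 0.57 under cerulein.

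Genes for entry into the ER and for transport vesicles followed at a smaller size. Of 43 tested, 11 were called higher and 0 lower, with a median of 0.60. They included Dad1 of the glycosylation complex (1.46), Ssr3 of the translocon (1.14) and the vesicle cargo receptor Tmed2 (0.99). None of the 11 was called in all 16 fits without 1 library or without the 3 shallow libraries, and these 3 named calls ended without Adam17ex cerulein replicate 2.

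In the list of acinar transcription factors and identity genes, 5 of 26 tested were higher and 0 lower, with a median of 0.76. Over all genes tested 3.75% were higher and 2.25% lower. Cckar (chr5:53697776-53707705) encodes the cholecystokinin receptor on which cerulein acts. It stood at 318, 291, 387 and 415 CPM in WT PBS and at 19.4, 20.5, 24.5 and 20.2 CPM in WT cerulein libraries. In Adam17ex it stood at 145, 229, 175 and 290 CPM under PBS and at 48.4, 151, 109 and 138 CPM under cerulein. All Adam17ex cerulein libraries lay above all WT cerulein libraries, and the PBS groups did not overlap either, with WT higher. The receptor fell by 4.01 in WT and by 0.89 in Adam17ex, and the interaction was 3.12 ± 0.39 (adjusted p = 5.13e-05). The others were the granule GTPase Rab27b (1.98), the coatomer subunit Copz2 (1.37), the creatine synthesis enzyme Gatm (1.26) and the ER protein Erp27 (1.00). Cckar and Rab27b held in all 16 fits without 1 library and without the 3 shallow libraries.

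Among the digestive enzymes themselves, 3 of 37 were called higher, beside 3.75% of all genes, the median was 0.37 and 34 of 37 values were above 0. These were colipase (Clps, 1.21 ± 0.31, adjusted p = 0.0198), the ribonuclease Rnase1 (1.12) and the lipase-related Pnliprp2 (1.08). None of the 3 calls held in all 16 fits without 1 library or without the 3 shallow libraries. For Clps it ended without WT cerulein replicate 3 or without Adam17ex cerulein replicate 2. Amylase (Amy2a5) had an interaction of 0.19 ± 0.32 (adjusted p = 0.770) and carboxypeptidase A1 (Cpa1) 0.71 ± 0.30 (adjusted p = 0.161). Outside these lists, Cyp39a1, an oxysterol hydroxylase, had an interaction of 2.76 ± 0.33 (adjusted p = 4.90e-05). Psmb10, an immunoproteasome subunit, fell by 2.04 in WT and 0.51 in Adam17ex (1.53 ± 0.25, adjusted p = 0.000715).

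Nuclear genes of the mitochondrial respiratory chain had 6 of 36 called higher, 36 of 36 values above 0 and a median of 0.64. Among them were the ATP synthase subunits Atp5h (1.00) and Atp5g1 (1.26) and the complex I subunit Ndufs6 (0.91). These 3 held in all 16 fits without 1 library, but no member of the list passed without the 3 shallow libraries, where the median was 0.35. The median genotype difference of the list was -0.41 under PBS and 0.26 under cerulein. In the cytosolic ribosomal protein list 39 of 40 values were above 0, with a median of 0.48, and Rpl18 was the single call (0.78 ± 0.22, adjusted p = 0.0355). That call ended in 9 of the 16 fits without 1 library. Without the 3 shallow libraries the interaction of Rpl18 was 0.58. The median genotype difference of the ribosomal protein list was -0.46 under PBS and 0.05 under cerulein. Among the Adam17ex PBS libraries on which these values lean, 3 were shallow and rich in ribosomal RNA, and the part of depth and RNA quality in the values was not tested.

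Circadian clock genes made up a different kind of interaction, one that lay in the PBS libraries. The clock is a loop in which ARNTL and CLOCK switch on their own repressors. Among these are the PER and CRY proteins and the receptors NR1D1 and NR1D2, which act against RORA, while DBP and TEF, opposed by NFIL3, pass the rhythm to other genes. Of 19 tested members 5 were called higher and 5 lower, with a median of -0.10. In 7 of the 19 the 4 Adam17ex PBS libraries lay all above or all below the other 12 libraries, against 2.40% of all genes tested.

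Dbp (chr7:45705088-45710203) stood at 9.18, 3.64, 2.05 and 0 CPM in WT PBS and at 4.41, 2.16, 8.39 and 4.84 CPM in WT cerulein libraries. In Adam17ex it stood at 76.1, 70.6, 49.0 and 104 CPM under PBS and at 4.12, 2.60, 1.17 and 1.99 CPM under cerulein. The Adam17ex PBS group alone was high, including replicate 4, whose depth was 1009634 molecules. Genotype moved Dbp by 4.53 log2 units under PBS (adjusted p = 3.25e-06) against -0.95 under cerulein (adjusted p = 0.355), and the interaction was -5.48 ± 0.74 (adjusted p = 0.000138). Without the 3 shallow libraries it was -5.72 (adjusted p = 0.000961).

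Nr1d2 had 37.3 to 60.1 CPM in Adam17ex PBS libraries and 1.33 to 10.2 CPM in the other 12 (interaction -3.26 ± 0.62, adjusted p = 0.00255). Nr1d1 had 9.80 to 18.7 CPM in Adam17ex PBS libraries, while 9 of the other 12 were at 0 and the remaining 3 at 0.665 to 4.41 CPM. Its fitted interaction of -7.85 ± 1.95 (adjusted p = 0.0208) depends on how 0 counts are treated, and the call ended without WT cerulein replicate 1 or without Adam17ex cerulein replicate 2. Per3 (-3.66 ± 1.08, adjusted p = 0.0461) had the same form. Tef (-2.19 ± 0.52, adjusted p = 0.0134) was also highest in Adam17ex PBS libraries, at 60.48 to 109.1 CPM. Unlike the others it fell in WT too, from 22.55 to 33.26 CPM under PBS to 2.161 to 7.938 CPM under cerulein. The call of Tef ended without Adam17ex cerulein replicate 2 (adjusted p = 0.0548) and that of Per3 in 13 of the 16 fits without 1 library.

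On the other side, Nfil3 was at 0 to 2.54 CPM in Adam17ex PBS libraries and at 3.64 to 39.7 CPM in the others (interaction 4.15 ± 0.93, adjusted p = 0.0101). Cry1 had 5.04 to 10.2 CPM in Adam17ex PBS and 20.4 to 30.7 CPM in WT PBS libraries (2.07 ± 0.45, adjusted p = 0.00741). Arntl (3.15 ± 0.77, adjusted p = 0.0170) was low in the same group, at 0 to 3.92 CPM, and its call ended without Adam17ex PBS replicate 4 or without Adam17ex cerulein replicate 2. Rora differed in form, since it dropped by 1.40 in WT under cerulein, against -0.05 in Adam17ex (interaction 1.34 ± 0.31, adjusted p = 0.0123). Of the 10 calls, 6 held in all 16 fits without 1 library and 4 without the 3 shallow libraries, among them Dbp, Nr1d2 and Tef. The labels used here do not give the hour of day at which the mice were killed.

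**Figure D5:**
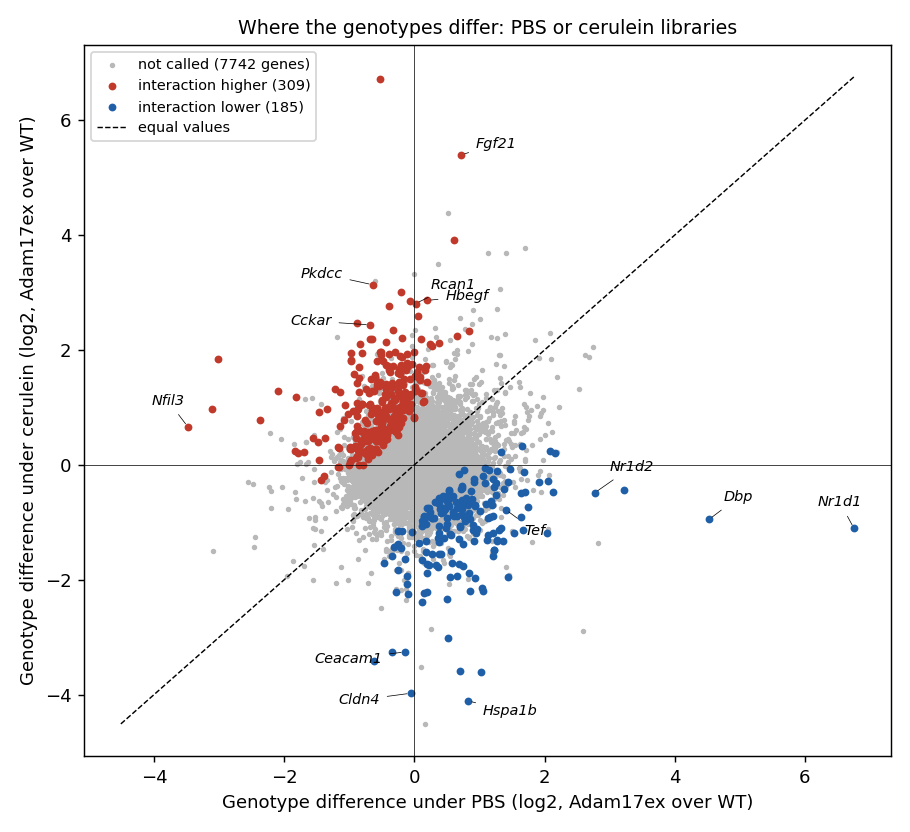
Each of the 8236 genes is placed by the genotype difference (Adam17ex over WT, log2) under PBS on the horizontal and under cerulein on the vertical axis, and the interaction is the second minus the first. Hspa1b, Cldn4, Ceacam1, Rcan1 and Fgf21 differ along the cerulein axis, whereas Dbp, Nr1d1, Nr1d2 and Nfil3 differ along the PBS axis.

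Smaller counts came from the other lists, to be set beside 3.75% higher and 2.25% lower over all genes tested. The junction list had 4 of 24 tested members lower, which were Ceacam1 and the claudins Cldn3, Cldn4 and Cldn7, and none higher. Of these 4 calls, 2 held in all 16 fits without 1 library and 1, Ceacam1, without the 3 shallow libraries. Of 21 NRF2 targets and metallothioneins 2 were higher and 1 lower, of 18 polyamine and Myc genes 2 and 2, of 17 p53 and BCL2 family genes 0 and 1, of 12 interferon and MHC class I genes 1 and 1, and of 8 tubulins 1 and 1. In 6 of the 32 lists the edgeR test called no member. They were NF-kB and TNF response (14 tested), ribosome biogenesis (33), proteasome subunits (36), mitochondrially encoded genes (11), cholesterol synthesis and uptake (12) and glycolysis and glucose uptake (13). At an unadjusted p under 0.05 they had 1, 2, 8, 0, 0 and 0 genes, beside 1799 of all 8236 genes tested. Among these lists limma voom called 1 proteasome gene and DESeq2 called 0. Their medians ran from -0.30 for the NF-kB list to 0.07 for ribosome biogenesis.

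Among the cell type marker lists, 1 of 12 fibroblast markers was lower (Col6a1), while the islet (19 tested), acinar (10), endothelial (9), macrophage (10), adipocyte (7), B cell (7) and erythrocyte (5) markers had no call by edgeR. At an unadjusted p under 0.05 these 7 lists had 3, 4, 0, 1, 1, 0 and 1 genes in that order, beside 1799 of all 8236 genes tested. In the same order their median interactions were -1, 0.483, -0.325, -1.01, 1.53, -0.356 and 1.27, beside -0.01 for all genes. Interactions above 0 numbered 3, 9, 3, 1, 6, 3 and 5. The fibroblast list had a median of -0.675, with 1 of 12 interactions above 0. Lists without a call could thus still be shifted as a set. The part of cell content in the results was not tested. Islet markers summed to 1650 CPM in the lowest library, of the WT cerulein group, and to 18700 CPM in the highest, of the Adam17ex PBS group.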

How the data were processed

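RNA from snap-frozen whole pancreas was extracted with TRIzol, and 3' ends of poly(A) RNA were sequenced from 30 ng per library, per the labels' protocols. The values used are counts of unique molecular identifiers per gene, deposited by the authors as 1 table of all 16 samples. The submitters' processing notes name GRCm38, R 4.1.2, edgeR 3.36.0 and limma 3.50.0. No source used here names the aligner or the counting tool.

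Here, 8236 of 24019 genes passed filterByExpr (minimum count 10) and were fitted in R 4.3.3 with edgeR 4.0.16 (TMM factors, quasi-likelihood test, 4 group means and sex, 11 residual degrees of freedom). A gene is called when its adjusted p (Benjamini-Hochberg) is under 0.05, and errors are SE on the log2 scale. The script was tested on simulated data. Named genes were the 20 highest and 20 lowest called interactions with a mean count of at least 10, up to 4 genes per list or response shape, and fixed genes of the ADAM17 axis. The comparison and the gene lists were chosen with earlier results of these data known. Promoter windows are from RefSeq (GRCm38.p6). Replicate numbers did not pair the samples: deviations of same-numbered samples correlated at -0.212 to 0.229. No 2 libraries of a group agreed within sampling noise. Alternatives were other scalings and filters, no sex term, a replicate block, thinned counts, limma 3.58.1 (voom), DESeq2 1.42.0 and fits without certain libraries.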

Additional observations from a re-analysis of the deposited data

Results flagged for a closer look

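The 494 genes with a called interaction had different cerulein effects in the 2 genotypes by a test of the difference itself. Beside these, 24 of 347 groups of 4 libraries had 1 library far from the other 3, where chance gives about 1 in 20. Of these, 9 were in the Adam17ex PBS group, 6 in WT cerulein, 5 in WT PBS and 4 in Adam17ex cerulein.

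Single libraries of the WT PBS group stood apart for Reg3b (2268 CPM in replicate 2, next 211), Reg3d (878.6 in replicate 2, next 457.7), Gatm (399.2 in replicate 1, next 344.7), Clps (30430 in replicate 4, next 25290) and Ndufs6 (192.5 in replicate 3, next 217.9). In the WT cerulein group they were Hspa1b (81.15 in replicate 1, next 182.4), Hmga1b (169.1 in replicate 3, next 220.3), Map1lc3b (145.4 in replicate 3, next 193.7), Atp5h (58.91 in replicate 4, next 50.32), Rpl34 (255 in replicate 4, next 45.43) and Nr1d1 (4.41 in replicate 1, next 0). Rpl34, a ribosomal protein gene with many pseudogene copies, is uncertain for that reason too, and its interaction was 2.80 ± 0.64 (adjusted p = 0.0120, edgeR).

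Among Adam17ex PBS libraries, Hsph1 stood apart in replicate 1 (48.22 CPM, next 27.72), as did Hyou1 (76.13, next 37.8) and Per3 (38.06, next 25.62). Replicate 2 stood apart for Fgf21 (103.3, next 29.41), Hbegf (10.08, next 7.885) and Fkbp11 (410.8, next 293.7). In replicate 2 the worth of 1 molecule was 2.1 CPM by depth alone, so the gap for Hbegf is about the size of 1 molecule. Replicate 4 stood apart for Hspa4l (2.957, next 9.804), Eif2ak3 (65.05, next 39.21) and Rab27b (31.54, next 19.61). In the Adam17ex cerulein group they were Map1lc3a (85.74 in replicate 4, next 39.13), Copz2 (38.1 in replicate 1, next 63.31), Cyp39a1 (33.97 in replicate 3, next 39.13) and Rpl18 (233.3 in replicate 2, next 202.8).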

How the results depend on the processing

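The number of interaction calls was 480 to 608 with other scalings, filters or tools, with no sex term or with the replicate block (488), and all main calls that could be tested kept their sign in each alternative. With female libraries alone it was 82 (49 higher, 33 lower), without the 3 shallow Adam17ex PBS libraries 152 (84 and 68) and with counts thinned to the shallowest library 291 (177 and 114). These 3 alternatives hold fewer libraries or fewer counts. In the same order, cerulein calls in Adam17ex numbered 1425, 1360 and 1544, and genotype calls under PBS 22, 15 and 64. Genotype calls under cerulein were 271 with female libraries and 429 after thinning, and cerulein calls in WT 2164 after thinning. Genotype calls under PBS were 331 with no filter, 407 with no sex term, 229 with the replicate block and 232 with DESeq2, and the cause was not tested. Leaving out 1 library gave 239 to 624 interaction calls (146 to 431 higher, 93 to 219 lower), 27 to 370 genotype calls under PBS and 403 to 915 under cerulein. Lower calls were 119 without WT PBS replicate 4 and 118 without Adam17ex PBS replicate 3. Of 80 named genes with a call, 31 kept it in all 29 alternatives, and none changed direction.

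Signs changed for 4 genes with no call, and the cause was not tested. Egfr took -0.002855 at a minimum count of 20, -0.331 with female libraries, -0.3166 without the 3 shallow libraries, and -0.1461 to 0.4208 without 1 library (below 0 at -0.1461, -0.1027, -0.02242 and -0.01214). Il6ra took 0.1582 with female libraries and 0.001023 without the 3 shallow ones. Il6st took -0.0777 with female libraries, -0.1241 after thinning, and -0.01855 to 0.3173 without 1 library (below 0 at -0.01855 and -0.002359). Reg3b took -0.8381 without WT PBS replicate 2, in a range of -0.8381 to 1.587 without 1 library, and was called only with no low-count filter (1.297, adjusted p = 0.00209, edgeR). By depth alone 1 molecule was worth 0.677 to 2.20 CPM. The composition factor (0.7995 to 1.227) shifts this worth in the scaled CPM, upwards where it is under 1, as in Adam17ex PBS replicates 1 and 2. Genes near those levels, such as Adam17, Nr1d1 and Per3, are limited by this.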
